A study of Mus musculus with 6 samples.

Results

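The mouse oligoadenylate synthetase family was followed through 8 genes chosen by symbol, Oas1a, Oas1b, Oas1c, Oas1g, Oas2, Oas3, Oasl1 and Oasl2. All 8 were found among the 54532 genes of the count table, and all 8 passed the filter on low counts that left 14333 genes for testing. RNA was sequenced from bone marrow-derived macrophages, which are macrophages grown in culture from bone marrow cells, of C57BL/6 mice aged 32 to 34 weeks. The XWT group carried Xbp1FL/FL alleles, in which Xbp1 is flanked by recombination sites and stays intact, and the XKO group was Xbp1ΔMf, lacking Xbp1 in macrophages by its label. The labels name no Cre driver. Both groups received lipopolysaccharide as a priming step, followed by 48 h in wild-type primary hepatocyte-conditioned medium, so neither group shows an unprimed or unexposed state. Each group had 3 libraries. Whether each library stands for its own mouse or culture is not in the labels, and the p-values therefore cover only library-to-library spread, which could be technical.

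Oligoadenylate synthetases are enzymes that bind double-stranded RNA and then join ATP into short chains with 2'-5' linkages, known as 2-5A. These chains act as a second messenger of the antiviral response. The genes are classical targets of type I interferon, which acts on interferon-stimulated response elements in their promoters, and in macrophages lipopolysaccharide induces them by way of secreted interferon beta. Mice carry a cluster of Oas1 copies in place of the single OAS1 gene of humans, and only some of these copies encode an active enzyme. XBP1, the factor deleted here, is the transcription factor of the IRE1 branch of the unfolded protein response.

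The libraries held 28354866 to 30891729 counts. Xbp1 stood at 158, 157 and 132 CPM (counts scaled to the library total, and between libraries by TMM) across XWT 1 to 3 against 76.7, 79.3 and 76.5 CPM across XKO 1 to 3. Every XKO library was lower, although reads outside any deleted part count too, so this checks the labels only in part. Across all tested genes 860 were higher and 1145 lower in XKO (edgeR quasi-likelihood test, adjusted p under 0.05), a split of 42.9% higher that became 60.7% with scaling by library size alone. The cultures carried macrophage markers at a summed 38860 to 47068 CPM in XWT and 24625 to 26266 CPM in XKO. Of these 7 markers only Lyz2 was called, and it was lower in XKO. All 7 fibroblast and stromal markers were lower in XKO, with sums of 563 to 669 CPM in XWT and 52.7 to 65.7 CPM in XKO. Of 6 tested neutrophil markers 5 were higher (S100a8, S100a9, Ltf, Lcn2 and Mmp8). The neutrophil list summed to 29.6 to 38.0 CPM in XWT and 58.0 to 61.5 CPM in XKO. Plasmacytoid dendritic cell markers summed to 435 to 498 CPM in XWT and 427 to 458 CPM in XKO with Klk1 at 0. Only 3 of these 5 markers were tested, and none was called. The sum does not tell which marker carries it, so it does not show that such cells were present. Conventional dendritic cell markers summed to 1.11 to 1.30 and 1.21 to 1.90 CPM, and endothelial markers to 12.4 to 13.1 and 10.5 to 11.5 CPM. Of 3 tested endothelial markers only Pecam1 was called, and it was lower in XKO. B cell markers reached at most 0.416 CPM and T and NK cell markers at most 0.0673 CPM, with Cd3e, Cd3d and Ncr1 at 0, and Alb, Apoa1, Ttr, Cyp2e1 and Serpina1a of hepatocytes had no count in any library. Which cells made the RNA of the stromal and neutrophil markers was not tested, nor was the part of such cells in the values of the synthetase genes. Fewer cells of a type and less RNA per cell cannot be told apart in bulk samples.

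Most of the family stood somewhat higher in XKO, but few members passed the test. Oas1b and Oasl1 rose, by 1.39-fold and 1.27-fold, so that 2 of 8 members were called higher against 6.00% of all tested genes. None was called lower (0 of 8 with edgeR, DESeq2 and limma-voom, against 7.99% of all genes lower with edgeR), and at an unadjusted p under 0.05 the family had 6 higher (14.5% of all tested genes were) and 1 lower (16.3% were). With scaling by library size alone 5 of 8 members were called higher, against 8.08% of all genes, and at an adjusted p under 0.1 (edgeR, TMM) 6 were higher, against 10.1%, and 1 lower, against 11.9%. The 3 XKO libraries lay above the 3 XWT libraries without overlap for 6 members, Oas1b, Oas1g, Oas2, Oas3, Oasl1 and Oasl2, and 17.5% of all tested genes did the same. For Oas1c they lay below without overlap, as 18.6% of all genes did, and for Oas1a the groups overlapped. The median log2 fold change was 0.20 over the 8 members and 0.00136 over all tested genes. Summed over the members, the level was 1118, 1062 and 1091 CPM in XWT 1 to 3 and, in XKO 1 to 3, 1252, 1235 and 1318 CPM. The lowest XKO sum thus stood above the highest XWT sum, with means of 1090 ± 27.8 and 1268 ± 44.2 CPM (SD, n = 3 each) at a ratio of 1.16.

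**Figure D1:**
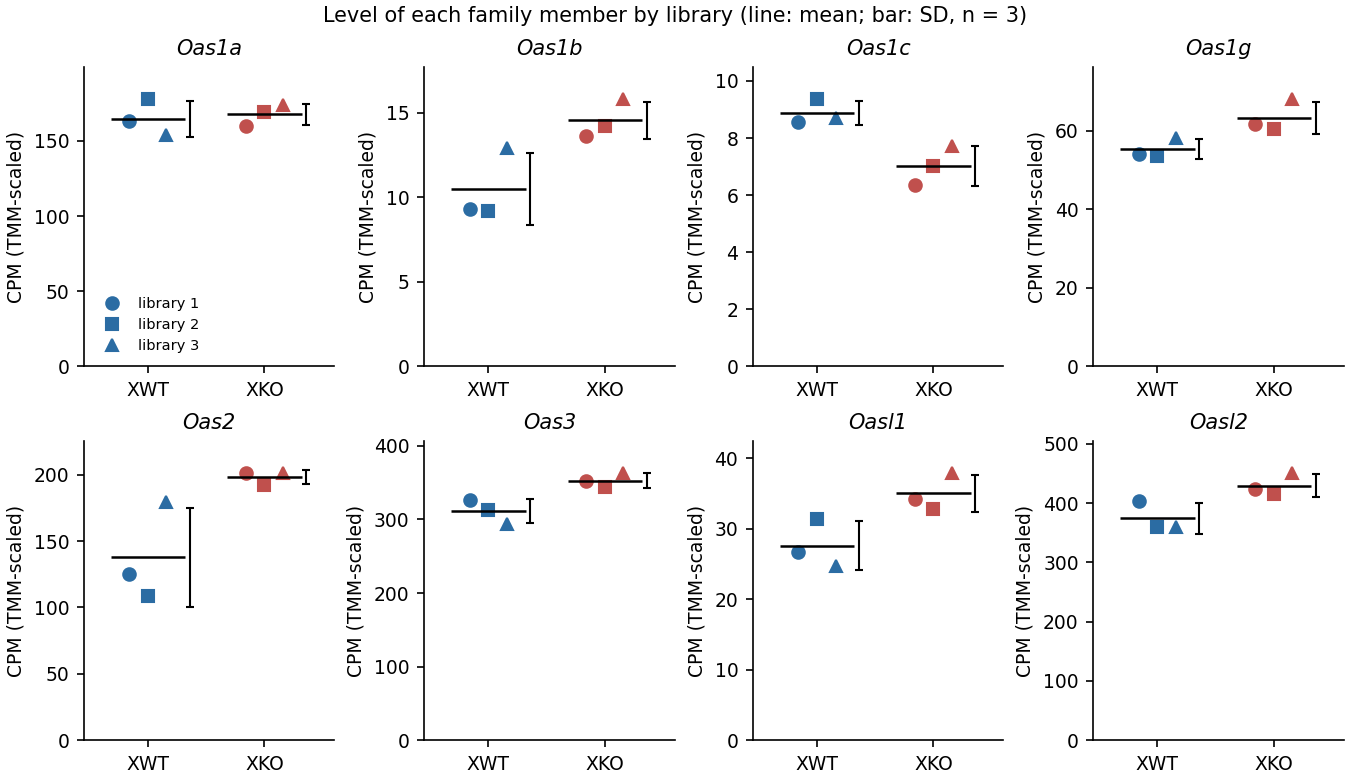
Level of each family member in TMM-scaled CPM on a linear axis from 0, with 1 point per library (circle, square and triangle for libraries 1, 2 and 3), a line at the group mean and a bar for the SD (n = 3). The XKO points lie above all XWT points for 6 members, below them for Oas1c and among them for Oas1a, and XWT 3 stands apart in Oas2 and Oas1b.

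Oas1c, the member with a lower level, and Oas1b, which rose, are neighbours in the genome. Oas1c (ENSMUSG00000001166) lies on chromosome 5 from 120800194 to 120812514 on the minus strand, with 7 exons in its longest coding transcript. Oas1b (ENSMUSG00000029605) lies from 120812635 to 120824163 on the plus strand, with 6 exons, all in GRCm38. Their start sites face away from each other with 120 bases between them, which are printed here because both genes begin at this stretch. They are set beside the same length of sequence before the start sites of the other members in the RefSeq promoter table (GRCm38.p6), which matched 6 of the 8 members and not Oas1b or Oas2. Each is written 5′ to 3′ on its gene's strand, and capitals mark matches to the core of the interferon-stimulated response element, searched as GAAANNGAAA on both strands.
Oas1c, chr5:120812515-120812634, minus strand: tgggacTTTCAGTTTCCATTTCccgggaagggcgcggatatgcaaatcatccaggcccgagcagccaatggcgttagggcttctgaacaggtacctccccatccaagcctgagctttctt
Oas1a, chr5:120907526-120907645, minus strand: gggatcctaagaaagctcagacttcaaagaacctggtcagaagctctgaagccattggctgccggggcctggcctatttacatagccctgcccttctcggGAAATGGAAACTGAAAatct
Oas1g, chr5:120887614-120887733, minus strand: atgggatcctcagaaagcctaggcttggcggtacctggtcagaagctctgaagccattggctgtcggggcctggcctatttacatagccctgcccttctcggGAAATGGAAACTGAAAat
Oas3, chr5:120777660-120777779, minus strand: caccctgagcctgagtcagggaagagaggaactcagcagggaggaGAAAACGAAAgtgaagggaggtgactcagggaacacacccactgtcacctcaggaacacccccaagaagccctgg
Oasl1, chr5:114923120-114923239, plus strand: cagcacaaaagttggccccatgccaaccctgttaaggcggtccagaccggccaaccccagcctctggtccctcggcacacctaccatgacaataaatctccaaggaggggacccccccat
Oasl2, chr5:114896814-114896933, plus strand: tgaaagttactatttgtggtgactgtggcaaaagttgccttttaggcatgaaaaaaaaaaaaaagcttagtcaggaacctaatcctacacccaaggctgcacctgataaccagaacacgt

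Over the whole 300-base promoters, from 250 bases before to 50 after the start, GAAANNGAAA was present in 4 of the 6 members, Oas1a, Oas1c, Oas1g and Oas3, and in 3.44% of the 32851 promoters of the table. In Oas1a, Oas1g and Oas1c the match is the same run of 16 bases, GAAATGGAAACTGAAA, made of a pair of overlapping matches and found in 7 promoters of the table (0.0213%), those of Apol9a and Apol9b besides. It ends close to the start in Oas1a (20 to 5 bases before it) and in Oas1g (18 to 3 bases before it). Between Oas1b and Oas1c the run reads along the strand of Oas1b, at 22 to 7 bases before the Oas1b start and 114 to 99 bases before that of Oas1c. The core of the gamma-activated site, TTCNNNGAA, was present in 1 of the 6, Oas1a, against 8.3% of promoters, and TGACGTG, the core of the element bound by XBP1, in 1 of the 6, Oasl2, where it crosses the start, against 2.01%. The letters of a match do not show that a factor binds there, and the letters missing from a window say nothing about the factor.

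Oas1b encodes a synthetase without enzyme activity that is known for resistance to flaviviruses, and laboratory strains such as C57BL/6 carry a premature stop codon in it. The table accordingly lists it as a polymorphic pseudogene. It stood at 9.31, 9.19 and 12.9 CPM in XWT 1 to 3 and, in XKO 1 to 3, at 13.7, 14.2 and 15.8 CPM. All XKO libraries were above all XWT libraries, and XWT 3 came close to the lowest of them. Oas1b rose by a log2 fold change of 0.47 (SE 0.133, edgeR adjusted p = 0.0325). The gene was called higher in all 9 other settings with all 6 libraries (adjusted p from 0.00163 to 0.0393), but its call ended when any single library other than XWT 3 was left out (adjusted p up to 0.149), and without XWT 3 the log2 fold change was 0.65 (adjusted p = 0.00167).

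Oas1c, an Oas1 copy whose product is regarded as enzymatically inactive, was the only member with a lower level. It stood at 8.57, 9.36 and 8.70 CPM in XWT 1 to 3 and, in XKO 1 to 3, at 6.34, 7.02 and 7.73 CPM, from 197 to 278 reads per library. The groups did not overlap. The log2 fold change of -0.34 (SE 0.122) did not pass the test (edgeR adjusted p = 0.0812), nor in any of the 15 settings with other scaling, filter, tool or libraries, where it lay between -0.41 and -0.27. The ratio of Oas1b to Oas1c reads, which no scaling between libraries can change, was 1.09, 0.982 and 1.49 in XWT 1 to 3 and, in XKO 1 to 3, 2.15, 2.02 and 2.04. This ratio was chosen after the values of both genes were seen. Since Oas1b lay wholly above and Oas1c wholly below in XKO, the separation of the groups in their ratio, by 0.83 on the log2 scale on average, follows from that choice and is given as a description. The noncoding antisense row Gm43069, which overlaps Oas1c, had no count in any library, although 6.28% of the 50-base windows of Oas1c transcripts occur in it.

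Oas1a and Oas1g encode synthetases with enzyme activity and are close copies of each other. Oas1a (ENSMUSG00000052776, chromosome 5 from 120896256 to 120907521) and Oas1g (ENSMUSG00000066861, 120876142 to 120887613) lie next to each other on the minus strand, both with 7 exons and 1101 coding bases. In GENCODE M21 transcripts, 57.6% of the 50-base windows of Oas1a and 45.2% of those of Oas1g occur in the other gene, and with windows of 100 bases 40.9% and 31.2% do. The sources used here do not say how reads that fit both genes were assigned, so the division of reads between this pair is uncertain. For the other members the share of 50-base windows found in no other gene was 97.0% for Oas1b, 84.9% for Oas1c, 99.5% for Oas3, 99.9% for Oasl2 and 100% for Oas2 and Oasl1.

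Oas1a showed no difference beyond its spread. Its level was 163, 178 and 154 CPM in XWT 1 to 3 and 160, 170 and 174 CPM in XKO 1 to 3, so the groups overlapped. Its log2 fold change was 0.025 (SE 0.070, edgeR adjusted p = 0.846), and its sign turned without XWT 3 (-0.024) and without XKO 3 (-0.0028). Oas1g stood at 54.2, 53.6 and 58.3 CPM in XWT and at 61.7, 60.5 and 68.1 CPM in XKO. All XKO libraries were above all XWT libraries. Its log2 fold change of 0.20 (SE 0.072) was not called (edgeR adjusted p = 0.0866), while it was called without XWT 3 (0.23, adjusted p = 0.0273) and with library size alone (0.26, adjusted p = 0.0416). With the counts of all Oas1 rows added up before the fit, the sum had a log2 fold change of 0.077 (SE 0.065, edgeR adjusted p = 0.452). The sum does not depend on how counted reads were split among the copies. Any reads left uncounted because they fit several copies would still be missing from it. Oas1a held most of the sum (165 of 240 CPM on average in XWT). The summed Oas1 level was 236, 250 and 234 CPM in XWT and 242, 252 and 266 CPM in XKO, with overlap.

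Oas2 and Oas3 encode larger synthetases that hold repeated copies of the synthetase unit. Oas2 (ENSMUSG00000032690, chromosome 5 from 120730333 to 120749853, minus strand, 12 exons) had the largest fold change of the family and the widest spread. It stood at 125, 109 and 179 CPM in XWT 1 to 3 and, in XKO 1 to 3, at 201, 193 and 201 CPM. The XKO libraries were close together, while XWT 3 lay far above the other XWT libraries and nearer to XKO. The coefficient of variation was 26.9% in XWT and 2.48% in XKO. Oas2 had a log2 fold change of 0.52 (SE 0.169), a 1.44-fold higher level that was not called (edgeR adjusted p = 0.0820). Without XWT 3 it was 0.76 (SE 0.068, adjusted p = 2.39e-05). It was also called with no filter (adjusted p = 4.74e-05), with quality weights for the libraries (0.00661) and with a replicate block (0.00334), and in no other setting (adjusted p up to 0.186). In these settings the log2 fold change was 0.52, 0.60 and 0.56. The SE was smaller there, at 0.095, 0.117 and 0.108, so these calls went with a smaller estimated spread.

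XWT 3 deviated upward in Oas2 and Oas1b and less, mostly downward, in the rest. Its log2 level was 0.41 above the XWT mean in Oas2 and 0.31 above it in Oas1b, against -0.15 to 0.075 in the other 6 members. Without XWT 3, Oas1b, Oas1g and Oas2 were called higher, which is 3 of 8 against 14.2% of all tested genes. Leaving out XKO 1, XKO 2 or XKO 3 left 0 of 8 members called higher, and the calls over all genes were then 316, 274 and 300 higher genes (2.16%, 1.87% and 2.04% of those tested). The 3 XWT libraries were more variable than the XKO libraries for 6 of the 8 members, with a median coefficient of variation of 7.10% against 5.41%, and less variable for Oas1c and Oas1g. Most tested genes of the 2-5A response, interferon signalling and nucleic acid sensing, given below, also had the larger SD in XWT. The larger spread is thus not particular to the members. The share over all tested genes was not counted.

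**Figure D2:**
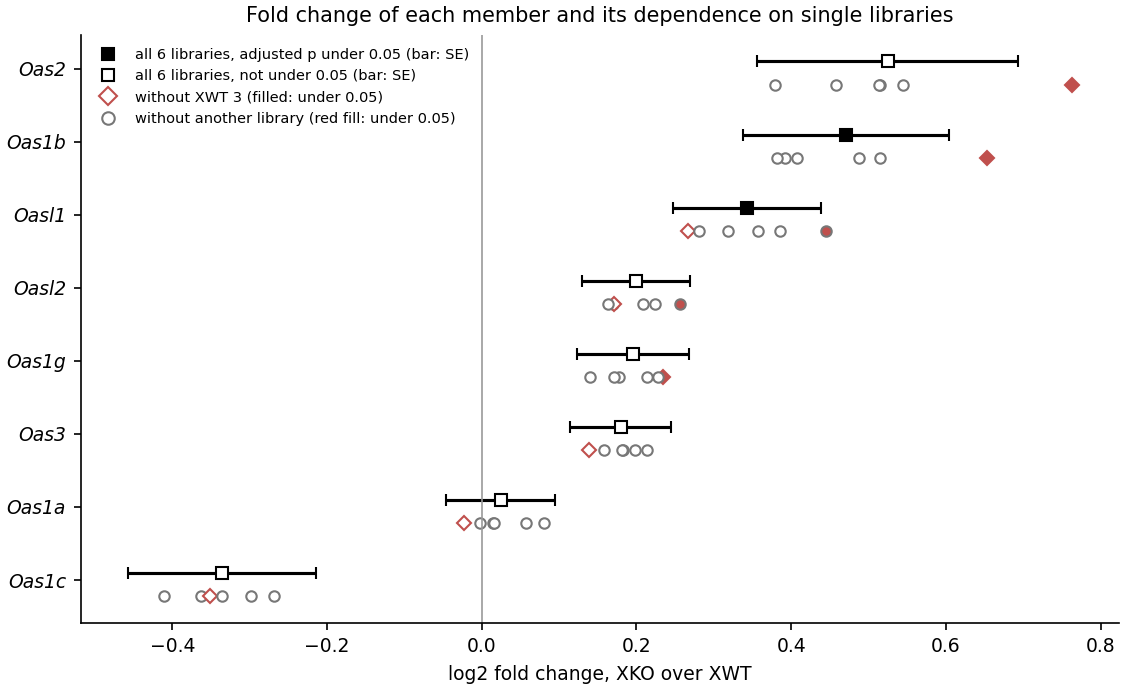
Log2 fold change of XKO over XWT for each member from all 6 libraries (squares, bar: SE, filled where the edgeR adjusted p was under 0.05) and with single libraries left out (small symbols, diamonds for XWT 3, filled where called). Without XWT 3 the values of Oas2 (0.76) and Oas1b (0.65) move furthest from those of all libraries, and Oas1a stays around 0.

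Oas3 (ENSMUSG00000032661, chromosome 5 from 120753098 to 120777661, minus strand, 16 exons) stood at 327, 313 and 294 CPM in XWT 1 to 3 and, in XKO 1 to 3, at 352, 343 and 363 CPM. The groups did not overlap, and here XWT 3 was the lowest library. The log2 fold change of 0.18 (SE 0.066) was not called (edgeR adjusted p = 0.0834), and among the alternatives only scaling by library size alone called it (0.25, adjusted p = 0.0104).

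Oasl1 and Oasl2 encode synthetase-like proteins that end in ubiquitin-like domains. OASL1 has no synthetase activity and is known to restrain translation of IRF7, a driver of interferon production, whereas mouse OASL2 keeps synthetase activity. They lie side by side on the plus strand of chromosome 5, Oasl2 (ENSMUSG00000029561) from 114896936 to 114912234 and Oasl1 (ENSMUSG00000041827) from 114923240 to 114937915, each with 6 exons, several megabases from the other members. Oasl1 stood at 26.7, 31.4 and 24.7 CPM in XWT 1 to 3 and, in XKO 1 to 3, at 34.3, 32.9 and 37.9 CPM. Every XKO library was above every XWT library, though XWT 2 and XKO 2 were close. Oasl1 rose by a log2 fold change of 0.34 (SE 0.096, edgeR adjusted p = 0.0313). Oasl1 was called higher in all 9 other settings with all 6 libraries (adjusted p from 0.00295 to 0.0390). Its call ended without XWT 1, XWT 3, XKO 1, XKO 2 or XKO 3 (adjusted p up to 0.162), and without XWT 2 the log2 fold change was 0.45 (adjusted p = 0.00970).

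Oasl2, the member with the most counts, stood at 404, 359 and 359 CPM in XWT 1 to 3 and, in XKO 1 to 3, at 423, 415 and 451 CPM. The XKO libraries were all higher, with XWT 1 near the lowest of them. The log2 fold change of 0.20 (SE 0.070) was not called (edgeR adjusted p = 0.0743). It was called with DESeq2 (0.20, adjusted p = 0.0458), with library size alone (0.27, adjusted p = 0.0125) and without XWT 1 (0.26, adjusted p = 0.0284). Oas1b and Oasl1 are the members, 2 of 8, with an adjusted p under 0.05 in the authors' deposited table (0.0190 and 0.0233). Of its 23413 genes with an adjusted p, 3.77% were called higher. These include genes with few reads, whereas all 8 members passed the filter on low counts. After that filter 6.00% of 14333 genes were called higher with edgeR. The authors' deposited table gives Oasl2 an adjusted p of 0.0566, Oas3 0.0739, Oas2 0.0992, Oas1g 0.119, Oas1c 0.134 and Oas1a 0.919.

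Levels can be set against each other between genes only per length, for which the deposited FPKM (fragments scaled by transcript length and sequencing depth) were used. In XWT the order from the highest was Oas1a at 87.4 ± 6.80 FPKM, Oasl2 at 58.6 ± 4.19, Oas3 at 44.0 ± 2.55, Oas2 at 30.9 ± 8.12, Oas1g at 23.6 ± 0.961, Oasl1 at 10.6 ± 1.38, Oas1b at 5.25 ± 1.03 and Oas1c at 3.69 ± 0.188 FPKM (SD, n = 3 each). In this order only Oas2 and Oas1g overlapped between neighbours. The division of reads between Oas1a and Oas1g is uncertain, so the places of this pair are uncertain too. In XKO the order was the same, from Oas1a at 88.6 ± 3.73 FPKM to Oas1c at 2.91 ± 0.286 FPKM (SD, n = 3 each), and no neighbours overlapped. Oas2 stood at 44.3 ± 1.10 FPKM there, next to Oas3 at 49.7 ± 1.38 FPKM. Of the summed CPM of the family, Oas2 held 12.6% ± 3.35 in XWT (11.2%, 10.2% and 16.4% in XWT 1 to 3) and 15.6% ± 0.396 in XKO (SD, n = 3 each), so that the share in XWT 3 was above those in all XKO libraries and the shares in XWT 1 and 2 were below them. Oas1c held 0.815% ± 0.0592 in XWT and 0.554% ± 0.0419 in XKO (SD, n = 3 each), the lowest XWT share lying above the highest XKO share. The share of Oas1a was also lower without overlap, at 15.1% ± 1.40 in XWT and 13.2% ± 0.481 in XKO (SD, n = 3 each).

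**Figure D3:**
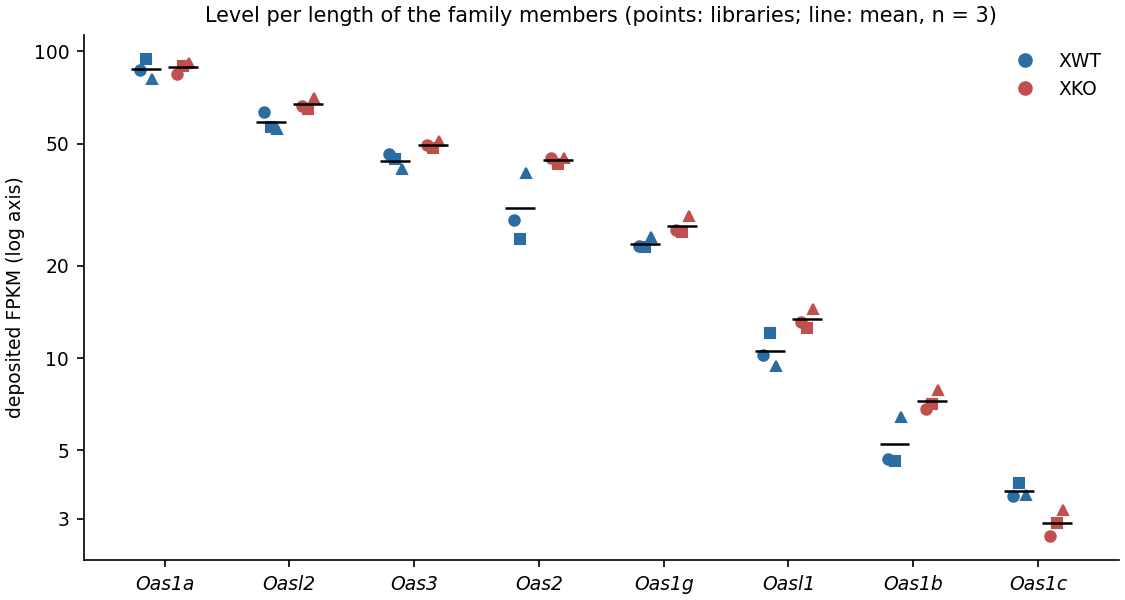
Deposited FPKM of each member on a log axis, with 1 point per library (circle, square and triangle for libraries 1, 2 and 3), XWT in blue, XKO in red and a line at each mean (n = 3). The order of the members by mean is the same in both groups, from Oas1a (87.4 and 88.6 FPKM) to Oas1c (3.69 and 2.91 FPKM).

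The 4 further Oas1 copies of the table were near or at 0 in both groups. Oas1h had 13, 17 and 16 reads in XWT and 22, 18 and 20 reads in XKO (log2 fold change 0.31, edgeR adjusted p = 0.573). Oas1d had 1 read and Oas1f 2 reads in all libraries together, and Oas1e none, which allows up to 3 counts, or 0.0960 to 0.111 CPM, in a library. Within 200 kb of the Oas1 to Oas3 cluster 8 other genes were tested, of which Tpcn1, a lysosomal ion channel gene, was lower (log2 fold change -0.25, edgeR adjusted p = 0.0286). Around Oasl1 and Oasl2, of 12 tested genes Ankrd13a, whose product binds ubiquitin chains, was lower (-0.30, adjusted p = 0.0181). These counts, 1 of 8 and 1 of 12, are near the 7.99% of all tested genes called lower. The rows overlapping members, Gm43068 in Oas2 and Gm13822 at the start of Oasl1, had at most 41 and 17 reads in a library.

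Genes of the 2-5A response, of interferon signalling and its factors, and of RNA and DNA sensing, here named pathway genes, moved in both directions. Of 37 genes in 5 lists, 31 were tested, and 6 of them were higher (19.4%, against 6.00% of all tested genes) and 4 lower (12.9%, against 7.99%), with a median log2 fold change of 0.000419. Among 3 tested genes of the response to 2-5A, Abce1, whose product recycles ribosomes, rose. It stood at 89.7, 73.1 and 92.6 CPM in XWT 1 to 3 and, in XKO 1 to 3, at 104, 104 and 109 CPM (log2 fold change 0.31, SE 0.084, edgeR adjusted p = 0.0266). All XKO libraries were higher, and the call ended without XKO 1, XKO 2 or XKO 3. The genes of 2-5A phosphodiesterases, Pde12 (-0.013) and Akap7 (0.28), were not called (adjusted p = 0.923 and 0.202).

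Interferon itself was hardly detected. Ifna1, Ifna4 and Ifng had no read in any library, Ifnb1 had 2 reads in XWT 2 and 1 in XKO 1, and Ifna2 had 1 read in XKO 3, so a difference in these ligands was not detectable at this depth. Of 5 tested receptor genes, Ifngr1, a chain of the interferon gamma receptor, fell from 260 ± 18.3 to 217 ± 8.20 CPM, and Il10rb, a chain shared by the receptors of interferon lambda and interleukin-10, fell from 168 ± 16.3 to 142 ± 2.74 CPM (SD, n = 3 each). Their log2 fold changes were -0.26 and -0.24 (edgeR adjusted p = 0.0277 and 0.0463). Both calls ended with library size alone and when any single library other than XWT 3 was left out, and that of Il10rb also with the stricter filter. The chains of the type I interferon receptor, Ifnar1 (0.000419) and Ifnar2 (-0.14), were not called (adjusted p = 0.997 and 0.126).

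Of the 5 signalling genes Jak2, a kinase of the interferon gamma receptor, rose from 74.2 ± 5.88 to 87.5 ± 2.98 CPM (SD, n = 3 each; log2 fold change 0.24, edgeR adjusted p = 0.0427). Its call ended when any single library other than XWT 3 was left out and with upper quartile scaling. Stat2, a transcription factor of the type I interferon response, stood at 200.1, 191 and 198 CPM in XWT and at 225, 215 and 234 CPM in XKO. The groups did not overlap. Its log2 fold change of 0.20, of the size of those of Oas1g, Oas3 and Oasl2, was just short of the call (edgeR adjusted p = 0.0534). The adjusted p deposited by the authors for Stat2 was 0.0366, under the threshold. Irf9, a DNA-binding factor of the same response, had a log2 fold change of -0.094 (adjusted p = 0.349).

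Among 9 factors and feedback genes, Socs3, an inhibitor of cytokine signalling, rose from 17.9 ± 1.07 to 25.4 ± 1.01 CPM (SD, n = 3 each; log2 fold change 0.50, edgeR adjusted p = 0.00151). Irf8, a factor of macrophage development, fell from 239 ± 21.7 to 201 ± 6.54 CPM (-0.25, adjusted p = 0.0389), and its call ended with library size alone and when any single library other than XWT 3 was left out. Irf7, whose translation OASL1 restrains, stood at 396, 438 and 336 CPM in XWT and at 404, 403 and 461 CPM in XKO. Its groups overlapped, with a log2 fold change of 0.12 (SE 0.092, adjusted p = 0.417). Usp18, an inhibitor of the type I interferon receptor, had a log2 fold change of 0.22 (adjusted p = 0.0817).

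Of 9 genes linked to the sensing of RNA and DNA, 3 rose. Mb21d1, the gene of cGAS, a nucleotidyltransferase related in fold to the synthetases, stood at 18.6, 17.5 and 21.4 CPM in XWT and at 25.9, 25.5 and 25.9 CPM in XKO (log2 fold change 0.43, edgeR adjusted p = 0.00696). Ifih1, the gene of the RNA sensor MDA5, rose from 91.3 ± 6.54 to 113 ± 6.08 CPM and Eif2ak2, the gene of the RNA-activated kinase PKR, from 101 ± 10.8 to 125 ± 4.96 CPM (SD, n = 3 each; log2 fold change 0.31 for both, adjusted p = 0.0127 and 0.0219). The call of Ifih1 ended without XKO 2 or XKO 3 and that of Eif2ak2 without XKO 1, XKO 2 or XKO 3. Mavs, the adaptor downstream of MDA5, fell (-0.21, adjusted p = 0.0465), and this call ended with library size alone, no filter or a replicate block and when any single library other than XWT 3 was left out. The stromal markers (median log2 fold change -3.36) and the neutrophil markers (0.89) moved between the same groups, and their part in these values was not tested.

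**Figure D4:**
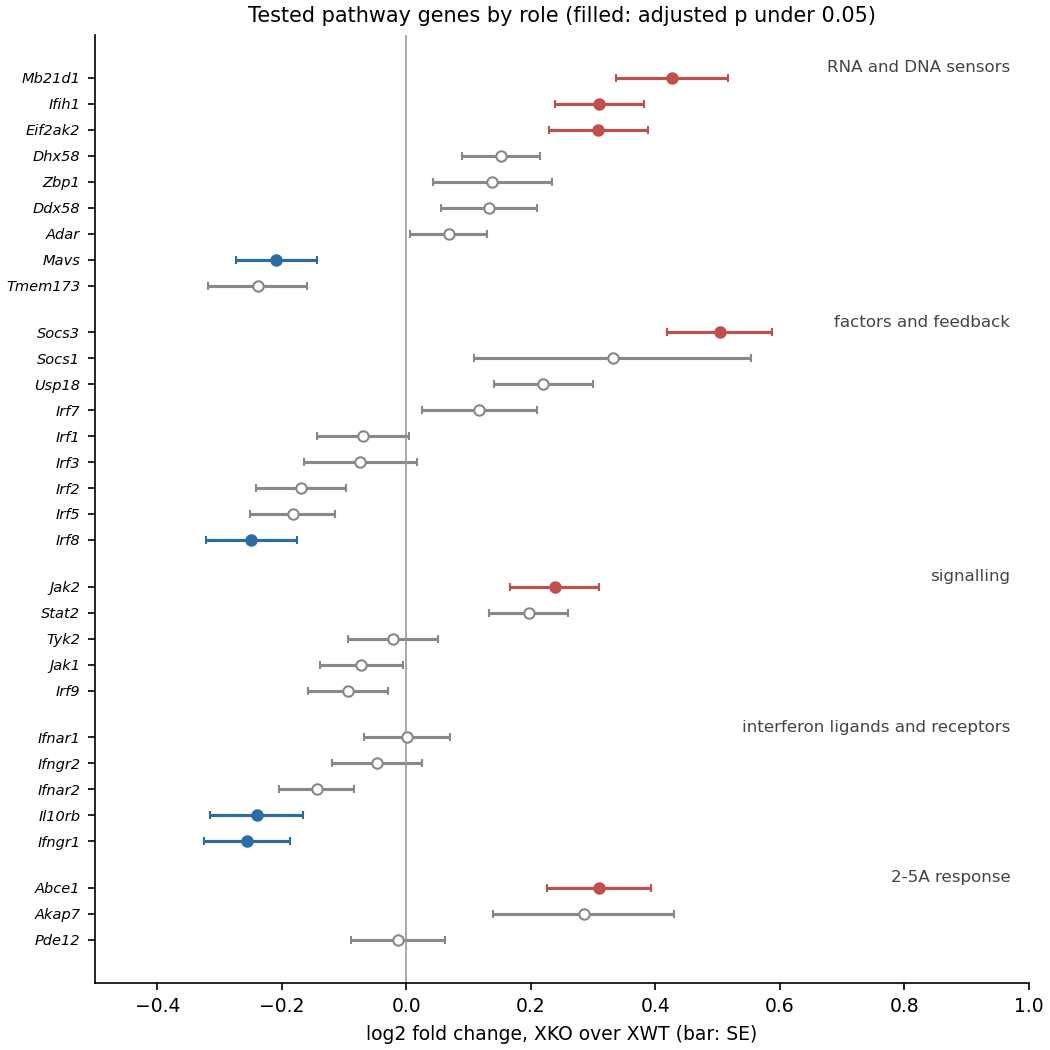
Log2 fold change of XKO over XWT with its SE for the 31 tested pathway genes, grouped by role. Points are filled in red where called higher and in blue where called lower (edgeR adjusted p under 0.05). Called genes lie on both sides of 0, from -0.26 for Ifngr1 to 0.50 for Socs3.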

How the data were processed

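The authors deposited 1 table, which by its file headers holds raw read counts for Ensembl genes beside FPKM, scaled group means (a signal), log2 fold changes and p-values, all deposited by the authors without a named tool. Bowtie 0.12.2 and the builds mm8 and mm10 appear in the submitters' processing notes, in no stated role. Nothing in the sources used here gives the aligner settings, counting program, strand setting or read length. The coordinates of all 12 Oas rows equal those of GENCODE M21 (GRCm38), as do 98.26% of 54409 matched rows.

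Counts were analysed with edgeR 4.0.16 in R 4.3.3 (filterByExpr, TMM, robust quasi-likelihood fit, 4 residual degrees of freedom, Benjamini-Hochberg over 14333 genes, threshold 0.05). Standard errors are the log2 fold change over the square root of F. At these depths the biological coefficient of variation was 0.0865. The scripts were checked on simulated counts. DESeq2 1.42.0, limma 3.58.1 and other scalings, filters, thresholds and libraries were alternatives. Members and lists were chosen with earlier results of these data known. Named genes are the 8 members, other Oas rows, Xbp1, called pathway genes and neighbours, and the 5 genes most alike; further names were chosen after their values were seen. Shared sequence was counted as 50-base and 100-base windows of GENCODE transcripts, on either strand for genes outside the family. Some pathway genes are not reported here and were left out of the lists.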

Additional observations from a re-analysis of the deposited data

How the results depend on the processing

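All 8 members kept their direction in the 15 alternatives with other scaling, filter, tool or libraries, except Oas1a, which ranged from -0.024 (without XWT 3) to 0.080 with 1 library left out, and was at -0.0028 without XKO 3. With all Oas1 rows summed the common log2 fold change was 0.077, the opposite of the sign of Oas1c alone, and 1 feature, Oasl1, was called higher in place of 2. Scaling by library size alone gave 5 members higher (8.08% of all tested genes were), 0 pathway genes lower and 749 genes lower, with 60.7% of calls higher. An adjusted p under 0.01 left 262 higher and 544 lower genes, 0 members, and 2 higher and 0 lower pathway genes. An adjusted p under 0.1 gave 1452 higher (10.1%) and 1712 lower genes (11.9%), with 6 members higher and 1 lower. With 1 library left out, higher genes ranged from 274 to 2073, lower genes from 532 to 2164, members higher from 0 to 3, pathway genes higher from 2 to 8 and lower from 0 to 7. The highest of these came without XWT 3, and the lowest counts of higher and lower genes without XKO 2. Nothing in the labels says that libraries of the same number share a mouse or a day. Deviations from the group means correlated at -0.080, -0.027 and -0.055 between libraries of the same number and at -0.0067 to 0.065 between others, over 14333 genes. With 3 libraries per group, each centred on its own group mean, these values cannot tell whether the numbers pair the libraries. With the replicate block 1068 genes were higher (7.45% of those tested) and 1127 lower. In that setting 3 of 8 members were higher, Oas2 being added (edgeR adjusted p = 0.00334). Counting error is relatively largest in members with few reads, as Oas1c with 197 to 278, but its part in the spread was not separated.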

Other observations

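Among 9428 tested genes of at least 5 CPM outside the family, those whose log2 CPM deviated from the group mean most like that of the summed family over the 6 libraries were Foxn2 (Pearson r = 0.996), Slu7 (0.993), Slc39a8 (0.984), Cbwd1 (0.978) and Gk (0.977). These are the highest of 9428 values over libraries that share their scaling, so they describe these libraries only. Foxn2, a forkhead factor gene, stood at 69.7, 63.5 and 66.9 CPM in XWT and at 74.1, 72.9 and 80.4 CPM in XKO, without overlap (log2 fold change 0.18, edgeR adjusted p = 0.0898). Gk, the glycerol kinase gene, was called higher, with 25.0, 24.1 and 24.4 CPM in XWT and 33.3, 33.3 and 35.0 CPM in XKO (0.47, edgeR adjusted p = 0.000891). Slu7 (-0.060), Slc39a8 (-0.057) and Cbwd1 (0.17) were not called.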
